A study of Homo sapiens with 6 samples.

Results

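The transcription factors that build the myeloid lineage were examined in MV4-11 cells: the ETS factor PU.1 (gene *SPI1*), the C/EBP family members *CEBPA*, *CEBPB*, *CEBPD* and *CEBPE*, and *RUNX1*, *GFI1*, *IRF8*, *MYB* and *KLF4*. Members were chosen as the rows of the count table whose Ensembl identifier carries one of these symbols. All 10 of the 10 symbols were found among 61806 identifiers, and all 10 passed the filter on low counts that left 19149 genes. MV4-11 is a human acute myeloid leukemia (AML) cell line with an FLT3-ITD mutation. Every library came from MV4-11 cells. A control shRNA was carried by 3 libraries (shNC 1 to 3) and 3 bore the label shATGL (shATGL 1 to 3), for an shRNA that targets the triglyceride lipase encoded by *PNPLA2*. The study's methods describe lentiviral delivery with puromycin selection. The labels do not say which *ATGL* shRNA each library carried, nor whether libraries were separate cultures, so p-values measure the spread between libraries, which may be technical. Total counts per library ranged from 59674064 to 74808280.

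Myeloid commitment depends on a small network of these factors. PU.1 and C/EBPα open and activate granulocyte and monocyte genes, *RUNX1* acts upstream of both in blood stem and progenitor cells, and *MYB* keeps progenitors proliferating. *IRF8* and *KLF4* favour the monocyte branch, while *GFI1* and C/EBPε favour the granulocyte branch. In AML the network is often held at an immature stage by mutation or by fusion proteins. The study asked whether C/EBPα links *ATGL* to *SCD*, the gene of the stearoyl-CoA desaturase that makes monounsaturated fatty acids, so the promoters of *CEBPA* and *SCD* are shown first.

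The promoter sequences are those of RefSeq for GRCh38.p14, from 250 bases before to 50 bases after each start, and the 250 bases before the start are printed in the direction of transcription. Capitals mark the letters TTNNGNAA (a relaxed consensus pattern of C/EBP factors), CCAAT (the box bound by the NF-Y complex) and CACCC (bound by KLF factors), searched on both strands. The *CEBPA* stretch lies on the minus strand at chr19:33302535-33302784 and holds none of them, and the *SCD* stretch lies on the plus strand at chr10:100346983-100347232.

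CEBPA: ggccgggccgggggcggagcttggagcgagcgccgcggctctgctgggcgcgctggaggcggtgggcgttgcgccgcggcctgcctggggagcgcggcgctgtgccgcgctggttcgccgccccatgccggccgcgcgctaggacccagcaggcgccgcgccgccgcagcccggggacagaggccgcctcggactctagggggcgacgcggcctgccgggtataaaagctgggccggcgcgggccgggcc
SCD: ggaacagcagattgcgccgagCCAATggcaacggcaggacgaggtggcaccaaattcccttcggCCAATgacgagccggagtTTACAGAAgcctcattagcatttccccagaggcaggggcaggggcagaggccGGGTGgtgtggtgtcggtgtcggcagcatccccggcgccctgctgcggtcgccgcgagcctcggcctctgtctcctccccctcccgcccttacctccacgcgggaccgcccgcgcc

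The *SCD* window held 1 match to TTNNGNAA, on its minus strand and starting 168 bases before the start site, and 2 matches to CCAAT. No marked match overlapped another. A C/EBP match is common: 36.8% of 35116 promoter windows of this length held at least 1, 34.6% held CCAAT and 59.9% held CACCC. The *CEBPA* window was 80.7% GC and had its only CACCC match 45 bases after the start. Of the 8 members with an entry in the promoter table, *GFI1* was the only one with the C/EBP letters, in 1 of its 3 windows. *SPI1* and *CEBPD* are not in the table. Some members have more than 1 window, and the 8 members have 12 windows together, so counts of windows are set beside the share of all windows. GAGGAA, the core that PU.1 prefers, was present in 5 of the 12 windows (27.9% of all windows). They belong to *GFI1*, *MYB*, *KLF4*, *CEBPE* and *RUNX1*. TGNGGT, a RUNX pattern, was present in 7 of the 12 windows, from 4 members (43.2% of all windows). The *MYB* pattern AACNG was in 8 windows of 6 members (77.2%), CACCC in 8 windows of 6 members and CCAAT in 4 windows of 3 members. The interferon-stimulated response element of IRF factors was in 0 (3.57%). These are matches of letters on either strand and were not measured as binding.

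The targeted gene was measured first because it checks the labels. *PNPLA2* was at 101, 97.0 and 107 CPM (counts scaled to a common library size after TMM normalization) in shNC 1 to 3, and at 102, 98.1 and 104 CPM in shATGL 1 to 3. The ranges overlapped, and the log2 fold change was -0.01 ± 0.063 (SE) with an adjusted p of 0.979 in edgeR's quasi-likelihood test, with adjustment by Benjamini-Hochberg over all tested genes. The shATGL level was 99.6% of shNC (95% CI 89.97 to 110), so the label was not borne out by the mRNA of these libraries, and each direction below refers to those labels. The study itself reported, from Western blots, that its *ATGL* shRNAs lowered the protein in MV4-11 cells. Its figures also show *ATGL* RNA after knockdown in these cells. It described *ATGL* expression, as well as protein, as still decreased in knockdown cells that overexpressed C/EBPα. Of the blood cell markers, *LYZ* was at 715 to 889 CPM, *PTPRC* (CD45) at 86.7 to 186 CPM and *CD33* at 82.0 to 87.2 CPM, while *MPO* was at 3.46 to 4.65 CPM. The T cell genes *CD3D* and *CD2* and the B cell gene *MS4A1* had no counts, and 8 lymphoid markers together reached 9.78 to 10.8 CPM in shNC and 10.8 to 11.8 CPM in shATGL. A set of 7 erythroid and platelet markers reached 0.487 to 0.718 and 0.499 to 1.55 CPM, with *HBB*, *GATA1* and *PF4* at 0, and 5 stromal and epithelial markers at most 0.252 CPM. The part of these markers in the results was not tested.

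The library labelled shATGL 3 stood apart. Its root mean square log2 distance from the other libraries of its group was 0.355, against 0.199 to 0.242 for the other 5 libraries. In 7 of the 10 members its value was nearer to the shNC mean than to the mean of shATGL 1 and 2. *SPI1*, *CEBPA*, *CEBPD*, *RUNX1*, *GFI1* and *IRF8*, 6 members, had both shATGL 1 and shATGL 2 below every shNC library, whereas shATGL 3 lay below every shNC library in *CEBPA*, *CEBPD* and *MYB* only, and above every one in *RUNX1*, *GFI1* and *KLF4*. Mitochondrial genes took 7.41% to 8.17% of counts in shNC, and 6.34%, 6.51% and 7.66% in shATGL 1, 2 and 3. Across 18566 genes with a known transcript, the fold change followed transcript length (Spearman's rho 0.218, across genes, which are not independent replicates) and GC content (rho -0.156). Values without shATGL 3 stand beside the results that it moves.

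To rank the RNA levels of the factors in MV4-11 cells, they were compared per kb of the longest annotated transcript, since a long transcript collects more reads. Which annotated transcript the cells use was not tested, and a shorter one would raise a gene's value per kb. *IRF8*, the interferon regulatory factor of monocytes and dendritic cells, led with 224 to 250.5 CPM per kb over the 6 libraries (median 244). *CEBPA* followed with 196 to 252 (median 227) and *SPI1* with 205 to 226 (median 215) CPM per kb. Neighbours among these top 3 overlapped in range, and *IRF8* exceeded *CEBPA* in 5 of the 6 libraries, while *CEBPA* exceeded *SPI1* in 4. *MYB* at 126 to 142 and *GFI1*, a repressor that limits monocyte genes, at 119 to 133 CPM per kb formed an overlapping second pair that lay below *SPI1* in all 6 libraries.

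The remaining factors were far lower. *CEBPD*, an inducible C/EBP factor, was at 34.4 to 49.3 and *RUNX1* at 31.0 to 35.0 CPM per kb, and these ranges also overlapped. *CEBPB*, the C/EBP factor of emergency granulopoiesis and macrophages, was at 12.7 to 16.2 CPM per kb. *KLF4* at 3.25 to 4.41 and *CEBPE*, the C/EBP factor of late granulocytes, at 1.80 to 2.94 CPM per kb closed the order without overlap. *IRF8*, *CEBPA* and *SPI1* stood at the 98.9th, 98.8th and 98.7th percentile of the 18566 genes per kb, and *KLF4* and *CEBPE* at the 52.8th and 44.7th. Without division by length the order of CPM was *IRF8*, *CEBPA*, *MYB*, *GFI1*, *SPI1*, *RUNX1*, *CEBPD*, *CEBPB*, *KLF4*, *CEBPE*, so 5 members had the same place in both orders, while *SPI1* was the fifth in CPM and the third per kb.

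**Figure D1:**
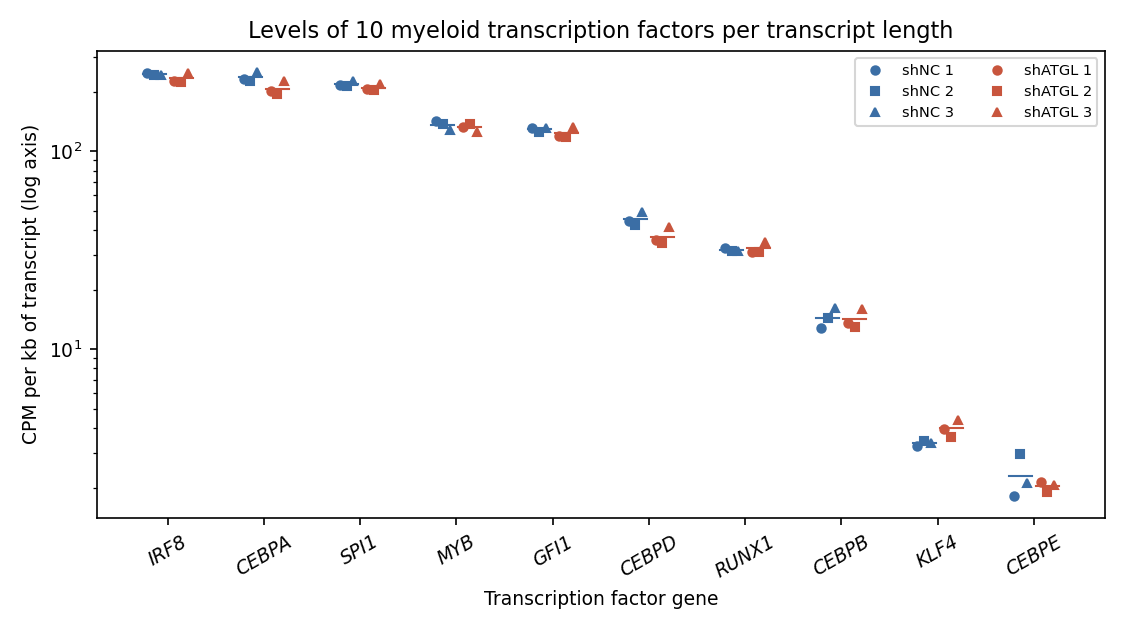
Level of each factor in CPM per kb of its longest annotated transcript (log axis), with a point for each library (blue shNC, red shATGL; circle, square and triangle for replicates 1, 2 and 3) and a line at the group mean. *IRF8*, *CEBPA* and *SPI1* lie together between 196 and 252, and *KLF4* and *CEBPE* below 5.

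The groups were then compared for each factor. None of the 10 members was called, which needed an adjusted p under 0.05 with a change of 2-fold or more, and over all genes the test called 1 (0.00522%), ENSG00000258790, a gene outside the members and named after its values were seen. No member had an adjusted p under 0.05 in this fit or in DESeq2. In bulk RNA, fewer cells that express a gene and less of its RNA per cell cannot be told apart. At an unadjusted p under 0.05, 2 of the 10 members were lower, *CEBPA* and *CEBPD*, against 5.94% of all tested genes, and 0 were higher, against 5.77%. The groups of 2 members did not overlap with shATGL lower (9.38% of all genes) and those of 1 member did not overlap with shATGL higher (7.93%). The log2 fold change was negative in 8 members and positive in 2, with a median of -0.06, and over all genes 48.1% were negative with a median of 0.01.

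The C/EBP family held both of the lower members. *CEBPA*, on chromosome 19 (33299934 to 33302564 in GENCODE 29 for GRCh38, a single exon), is the master factor of granulocyte and monocyte progenitors. It was at 614, 600 and 664 CPM in shNC 1 to 3 and at 530, 516 and 594 CPM in shATGL 1 to 3, so every shATGL library lay below every shNC library, shATGL 3 by the least. The group means were 626 ± 33.5 and 547 ± 41.7 CPM (SD, n = 3 each). The shATGL level was 87.4% of shNC (95% CI 77.8 to 98.2), a log2 fold change of -0.19 ± 0.072 (SE). In edgeR the adjusted p was 0.399 (0.0291 before adjustment), and the exact two-sided permutation p was 0.1, the smallest that 3 against 3 can give. Without shATGL 3 the log2 fold change of *CEBPA* was -0.26 with an adjusted p of 0.0214 in edgeR.

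*CEBPD*, on chromosome 8, had the same pattern. It was at 97.4, 92.5 and 107 CPM in shNC and at 77.7, 74.9 and 90.1 CPM in shATGL 1 to 3, with no overlap and again with shATGL 3 nearest to the controls. Its shATGL level was 81.6% of shNC (95% CI 70.4 to 94.7), a log2 fold change of -0.29 ± 0.092. In edgeR the adjusted p was 0.392 (0.0140 before adjustment), and the exact two-sided permutation p was 0.1. Without shATGL 3 its log2 fold change was -0.38 with an adjusted p of 0.0153. At an adjusted p under 0.05 without that library, *CEBPA* and *CEBPD* were 2 of 10 lower members against 6.07% of all genes, and in limma voom with quality weights, which gives less weight to libraries that stand apart, the same 2 of 10 members passed (adjusted p 0.0294 and 0.0271) against 5.27% of all genes. When each library's trend with length and GC content was removed, *CEBPA* was at -0.20 and *CEBPD* at -0.29 on the log2 scale, with an adjusted p of 0.345 for both in edgeR, and they were the 2 of 10 members lower at an unadjusted p under 0.05 in that fit, against 6.81% of all genes.

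The other C/EBP members, *CEBPB* and *CEBPE*, did not separate the groups. *CEBPB*, on chromosome 20 (50190734 to 50192689), was at 24.9, 28.3 and 31.7 CPM in shNC and at 26.7, 25.2 and 31.1 CPM in shATGL, a log2 fold change of -0.03 ± 0.12 (adjusted p 0.932, edgeR) whose sign turned without shNC 3 or without shATGL 2. *CEBPE*, on chromosome 14 (23117304 to 23119616), was at 2.80, 4.57 and 3.29 CPM in shNC and at 3.31, 2.95 and 3.21 CPM in shATGL, and its 193 to 272 counts per library gave an interval of 63.9% to 124% of the shNC level. *CEBPG*, which is not a member, was lower in each shATGL library than in each shNC library, as were 9.38% of all genes. Its log2 fold change was -0.11 (adjusted p 0.523, edgeR), and it is described after its values were seen. Summed over the family with *CEBPG*, C/EBP transcripts were at 325 ± 16.7 CPM per kb in shNC and 284 ± 19.99 CPM per kb in shATGL (SD, n = 3 each). The share of *CEBPA* in that sum was 73.2% ± 0.30 in shNC and 73.1% ± 0.42 in shATGL, and the share of *CEBPD* was 13.98% ± 0.37 and 13.0% ± 0.38. *CEBPA* thus made up the same share of the family within the spread of the libraries, while each *CEBPD* share in shATGL (12.9%, 12.7% and 13.5%) lay below each in shNC (14.1%, 13.6% and 14.3%).

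*KLF4*, on chromosome 9 (107484852 to 107490482), a zinc finger factor that drives monocyte differentiation and restrains growth, was higher instead. It was at 9.14, 9.64 and 9.41 CPM in shNC and at 11.1, 10.2 and 12.4 CPM in shATGL 1 to 3, with all shATGL libraries above all shNC libraries and shATGL 3 the farthest from them. Its shATGL level was 119% of shNC (95% CI 99.7 to 143), a log2 fold change of 0.25 ± 0.11. In edgeR the adjusted p was 0.429 (0.0528 before adjustment), and the exact two-sided permutation p was 0.1. Without shATGL 3 it was 0.17 with an adjusted p of 0.346, and after removal of the length and GC trend 0.29 with an adjusted p of 0.364. In that corrected fit it was the 1 of 10 members higher at an unadjusted p under 0.05 (0.0185 in edgeR), against 5.51% of all genes. The 574 to 820 counts of *KLF4* per library make it one of the least deeply measured members.

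**Figure D2:**
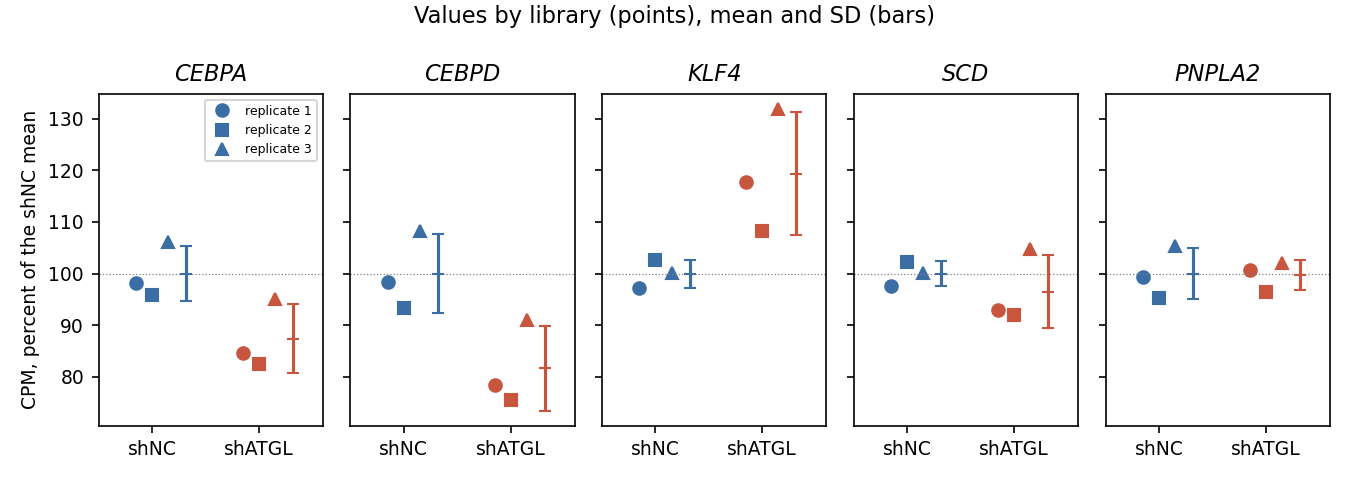
CPM as a percent of the shNC mean for *CEBPA*, *CEBPD*, *KLF4*, *SCD* and *PNPLA2*, with a point for each library (circle, square and triangle for replicates 1, 2 and 3; blue shNC, red shATGL) and the group mean with its SD beside them (n = 3). *CEBPA* and *CEBPD* do not overlap between the groups and are lower in shATGL, *KLF4* does not overlap and is higher, and *SCD* and *PNPLA2* overlap.

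The groups overlapped in *IRF8* and *SPI1*, the factors of the monocyte branch and of lineage priming. *IRF8*, on chromosome 16 (85898803 to 85922609), was at 759, 740 and 737 CPM in shNC and at 691, 680 and 756 CPM in shATGL 1 to 3. shATGL 1 and 2 lay below the controls and shATGL 3 within them, and the log2 fold change was -0.07 ± 0.058 (adjusted p 0.627, edgeR), or -0.12 with an adjusted p of 0.0786 without shATGL 3. *SPI1*, on chromosome 11 (47354860 to 47378576), was at 303, 302 and 318 CPM in shNC and at 291, 288 and 307 CPM in shATGL. Here too shATGL 1 and 2 lay below the controls and shATGL 3 within them. The level of *SPI1* in shATGL was 96.0% of shNC (95% CI 87.9 to 105), a log2 fold change of -0.06 ± 0.055 (adjusted p 0.683, edgeR). Without shATGL 3 it was -0.09 with an adjusted p of 0.245, and after removal of the length and GC trend it was -0.0044 with an adjusted p of 0.973.

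*RUNX1*, *GFI1* and *MYB*, the factors of progenitors and of the granulocyte branch, also overlapped between the groups. *RUNX1*, on chromosome 21 (34787801 to 36004667) and the target of several leukemia fusions, was at 235, 228 and 228 CPM in shNC and at 226, 226 and 254 CPM in shATGL, so that shATGL 3 alone gave the group its higher mean. Its log2 fold change was 0.03 ± 0.065 (adjusted p 0.878, edgeR), and it was -0.03 without shATGL 3 and -0.06 after removal of the length and GC trend. *GFI1*, on chromosome 1 (92474762 to 92486876), was at 374, 359 and 375 CPM in shNC and at 341, 338 and 381 CPM in shATGL, a log2 fold change of -0.06 ± 0.064 (adjusted p 0.697, edgeR), or -0.12 with an adjusted p of 0.101 without shATGL 3. *MYB*, on chromosome 6 (135181315 to 135219173), was at 522, 508 and 473 CPM in shNC and at 490, 504 and 462 CPM in shATGL, a log2 fold change of -0.04 ± 0.062 (adjusted p 0.787, edgeR). It ranged from -0.09 without shNC 3 to -0.01 without shNC 2 when single libraries were left out, was -0.02 without shNC 1 and -0.01 without shATGL 3, and did not pass in any of these fits. The replicates of *MYB* spread more than its groups differed, and its interval ran from 87.8% to 107% of the shNC level.

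**Figure D3:**
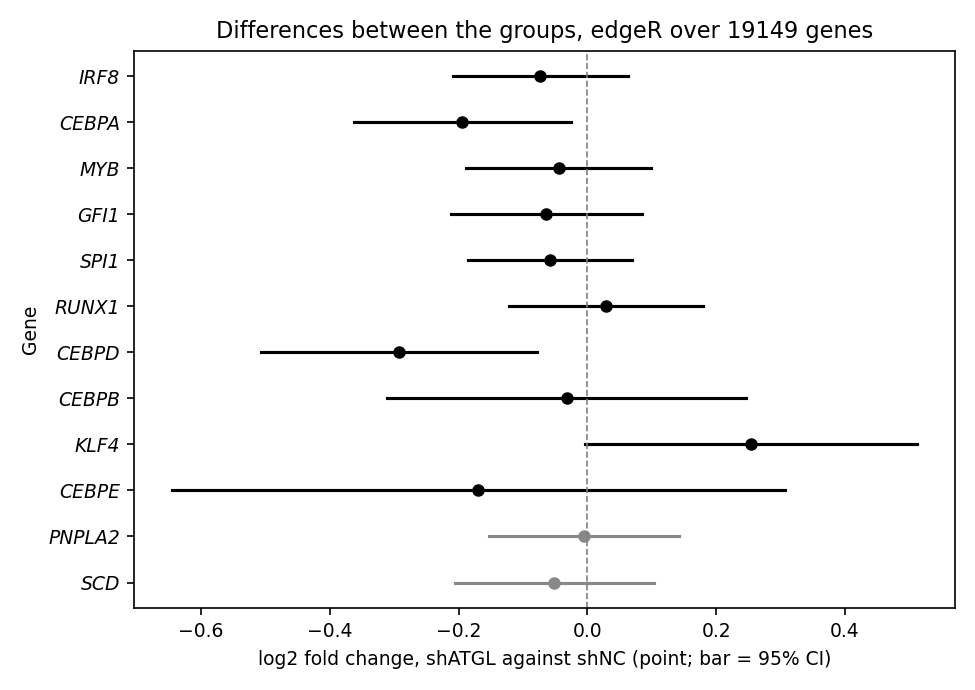
Log2 fold change of shATGL against shNC (points) with its 95% CI (bars) from edgeR for the 10 factors in the order of their CPM (black) and for *PNPLA2* and *SCD* (grey). The intervals of *CEBPA* and *CEBPD* lie below 0, that of *KLF4* reaches from -0.00 to 0.51, and all others cover 0; none has an adjusted p under 0.05.

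Ratios between factors compare pairs within a library, and library size cancels in them. The log2 ratio of *SPI1* to *CEBPA*, in CPM, was -1.02 ± 0.037 in shNC and -0.89 ± 0.059 in shATGL, and the groups did not overlap. The ratio of *IRF8* to *CEBPA* was 0.25 ± 0.089 and 0.37 ± 0.026, also without overlap, and that of *KLF4* to *IRF8* was -6.31 ± 0.059 and -5.99 ± 0.068. Between *IRF8* and *GFI1*, which act against each other in the choice of monocyte or granulocyte fate, the log2 ratio of *GFI1* to *IRF8* was -1.01 ± 0.035 and -1.005 ± 0.015, with overlap (SD, n = 3 each). The log2 ratio of *MYB* to *CEBPA* was -0.32 ± 0.15 and -0.17 ± 0.17, with overlap. That of *CEBPA* to *CEBPD* was 2.66 ± 0.033 and 2.76 ± 0.034, without overlap. The pairs that separated all contain *CEBPA* or *KLF4* and restate the values above, and no test was run on them. In shATGL 3 alone these log2 ratios were -0.95 for *SPI1* to *CEBPA*, 0.35 for *IRF8* to *CEBPA* and -5.93 for *KLF4* to *IRF8*.

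*SCD* was the candidate target of C/EBPα that the study examined. The study reported that *ATGL* knockdown significantly lowered *SCD* mRNA in its AML cells, and its RNA sequencing pointed to *SCD* as an important gene. From RT-qPCR and Western blots it also reported less *CEBPA* expression and protein after knockdown. In the libraries examined here *SCD* was at 344, 361 and 354 CPM in shNC and at 328, 325 and 370 CPM in shATGL 1 to 3. shATGL 1 and 2 lay below the controls and shATGL 3 above them, and the log2 fold change was -0.05 ± 0.066 (adjusted p 0.773, edgeR), or -0.12 with an adjusted p of 0.121 without shATGL 3. Over the 6 libraries, which hold both groups, *CEBPA* and *SCD* in log2(CPM + 1) gave a Pearson's r of 0.729 (exact permutation p = 0.101, adjusted 0.203) and a Spearman's rho of 0.486 (p = 0.356, adjusted 0.497). Without shATGL 1 and 2, the libraries farthest from the median of *CEBPA*, r was -0.474 (exact permutation p = 0.583), so the relation rested on those libraries. With 1 library left out r ran from 0.551 without shATGL 2 to 0.851 without shATGL 3. *CEBPA* and *PNPLA2* gave an r of 0.540 (exact permutation p = 0.276) and a rho of 0.371 (p = 0.497, adjusted 0.497), and r was 0.701 without the same libraries (exact permutation p = 0.333). These are the 2 relations computed, adjusted together, and neither passed. The tested genes whose values were most like *CEBPA* were ENSG00000244313, *RPS9*, a ribosomal protein gene, and *PPIA*, the cyclophilin A gene, each with r = 0.999 over the 6 libraries, and 1716 of 19148 genes had an r above 0.9.

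The partners and targets of these factors were counted in lists, which are read against the 5.94% of all genes lower and 5.77% higher at an unadjusted p under 0.05 and the median of 0.01 over all genes. Genes that this p passed but that were neither among the most abundant nor the smallest p of their list are named after their values were seen. Of 15 bZIP genes whose products can pair or compete with C/EBP factors, 2 were lower and 1 higher at an unadjusted p under 0.05, with 0 at an adjusted p under 0.05 and a median log2 fold change of -0.09. *ATF4*, the stress-response factor, was at 383, 360 and 410 CPM in shNC and at 318, 312 and 364 CPM in shATGL, a log2 fold change of -0.21 (adjusted p 0.399, edgeR), with the groups overlapping through shATGL 3, and -0.29 with an adjusted p of 0.0226 without that library. *MAFG*, a small *MAF* protein, was at 217 to 234 and 210 to 231 CPM. The higher gene was *ATF3*, a stress-induced factor, at 0.952 to 1.30 and 1.33 to 2.16 CPM.

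Of 41 other blood transcription factors and cofactors, 39 were tested, 0 were lower and 1 was higher at an unadjusted p under 0.05, and their median was -0.02. *MEF2D* was at 580 to 602 CPM in shNC and 564 to 646 CPM in shATGL and *ELF1*, an ETS factor, at 254 to 312 and 259 to 328 CPM. *EP300*, a histone acetyltransferase that C/EBPα and *MYB* use as a coactivator, was at 116 to 126 and 125 to 159 CPM (log2 fold change 0.22, adjusted p 0.417, edgeR), and *LMO2*, an adaptor of the stem cell factor complex, was at 195 to 214 and 170 to 200 CPM (-0.16, adjusted p 0.464). The erythroid factor *GATA1* had 0 counts in every library, and *GFI1B*, the erythroid relative of *GFI1*, had counts in shATGL 3 only, at 0.0666 CPM.

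Of 16 genes that C/EBP factors activate, 13 were tested, and 3 were lower and 0 higher at an unadjusted p under 0.05, with a median of -0.07. The azurophil granule genes *PRTN3* (2148 to 2384 CPM in shNC, 2054 to 2278 CPM in shATGL) and *AZU1* (1171 to 1263 and 1183 to 1246 CPM) were the most abundant and overlapped between groups. *S100A9*, a calcium-binding protein of neutrophils and monocytes, was at 19.1, 18.8 and 22.3 CPM in shNC and at 13.3, 12.8 and 17.8 CPM in shATGL, a log2 fold change of -0.46 ± 0.15 (adjusted p 0.392, edgeR). *MS4A3*, a membrane protein of granulocyte and monocyte progenitors, was at 395, 377 and 420 CPM in shNC and at 341, 334 and 366 CPM in shATGL, a log2 fold change of -0.20 ± 0.065 (adjusted p 0.392, edgeR). Both had groups that did not overlap. Among the 13 tested, 3 genes did not overlap with shATGL lower (9.38% of all genes) and 2 with shATGL higher (7.93%). The third lower gene was *CTSG*, the cathepsin G gene, at 421 to 490 and 351 to 423 CPM, with overlap. The secondary granule genes *LTF* and *LCN2* and the gene *CEACAM8*, all of later granulocytes, had 0 counts in every library.

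Of 20 genes that PU.1 and *IRF8* activate, 5 were lower and 1 higher at an unadjusted p under 0.05, with a median of -0.08. *LYZ*, the lysozyme gene, was at 829, 805 and 889 CPM in shNC and at 715, 720 and 777 CPM in shATGL, a log2 fold change of -0.19 ± 0.062 (adjusted p 0.392, edgeR). *CYBB*, the catalytic subunit of the phagocyte oxidase, was at 2.92 to 4.08 and 4.68 to 5.36 CPM, a log2 fold change of 0.53 ± 0.17 (adjusted p 0.392). The other lower genes were *TYROBP* and *FCER1G*, adaptors of activating receptors (log2 fold change -0.31 and -0.21), *AIF1*, a calcium-binding protein of macrophages (-0.25), and *CST3*, the cystatin C gene (-0.21). *CD68*, a lysosomal protein of macrophages, was at 445 to 510 and 394 to 518 CPM and overlapped.

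Of 14 genes that *MYB* activates or *GFI1* represses, 13 were tested, and 1 was lower and 0 higher at an unadjusted p under 0.05, with a median of -0.09. *CCNB1*, the mitotic cyclin B1, was at 231 to 250 CPM in shNC and 202 to 225 CPM in shATGL without overlap (log2 fold change -0.18, adjusted p 0.396, edgeR). *CDK6*, a cell cycle kinase, was at 282, 313 and 239 CPM in shNC and at 391, 382 and 223 CPM in shATGL 1 to 3, so that shATGL 3 lay below the controls and the other 2 above them. Its log2 fold change was 0.26 (adjusted p 0.634, edgeR), 0.47 with an adjusted p of 0.0221 without shATGL 3, and -0.02 with an adjusted p of 0.941 after removal of the length and GC trend. *HOXA9*, a homeobox gene highly expressed in KMT2A-rearranged leukemia, was at 65.7 to 74.6 and 61.6 to 66.5 CPM (-0.13, adjusted p 0.502), and the stem cell marker *CD34* had counts in shATGL 3 only, at 0.0666 CPM.

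No gene of these 5 lists had an adjusted p under 0.05. Without shATGL 3, 2 of 15 bZIP genes, 3 of 39 other factors, 3 of 13 C/EBP targets, 5 of 20 targets of PU.1 and *IRF8* and 2 of 13 targets of *MYB* and *GFI1* were lower at an adjusted p under 0.05 in edgeR, against 6.07% of all genes in that fit, and 1, 0, 0, 1 and 1 genes of the lists in the same order were higher (*BACH1*, *MNDA* and *CDK6*, named after their values were seen), against 7.94%. After removal of the length and GC trend, which left a rho of -0.0748 with length, the counts lower at an unadjusted p under 0.05 were 4, 3, 2, 3 and 1 in the same order, against 6.81% of all genes.

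**Figure D4:**
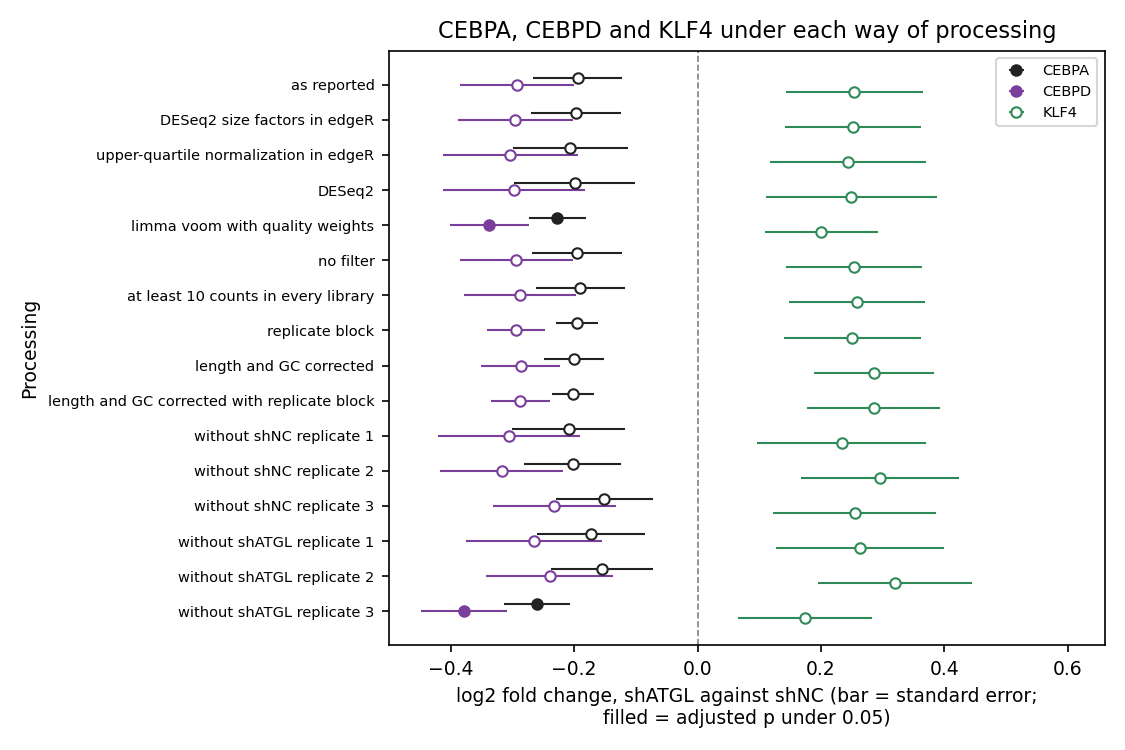
Log2 fold change of shATGL against shNC with its standard error for *CEBPA* (black), *CEBPD* (purple) and *KLF4* (green) as reported and under 15 other ways of processing the counts; filled points have an adjusted p under 0.05. *CEBPA* stays between -0.26 and -0.15, *CEBPD* between -0.38 and -0.23 and *KLF4* between 0.17 and 0.32, and filled points appear only for *CEBPA* and *CEBPD* with voom and without shATGL 3.

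Reads over overlapping genes could have been shared, since the strand setting of the counting is not given in the sources used here. In *CEBPA*, the antisense gene ENSG00000267580 had 2 counts in shATGL 3 and 0 in every other library. *CEBPB-AS1* had 33 to 74 counts beside 1682 to 2245 of *CEBPB*, *MYB-AS1* had 22 to 81 counts beside 27789 to 38556 of *MYB*, and the microRNA gene *MIR6774*, within *IRF8*, had 25 to 60 counts beside 44068 to 54993. *SPI1*, *CEBPD*, *CEBPE*, *GFI1* and *KLF4* overlapped no other annotated gene, and within *RUNX1* only the pseudogene *EZH2P1* had counts, 2 to 4 per library.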

How the data were processed

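RNA from 6 MV4-11 libraries, 3 shNC and 3 labelled shATGL, was sequenced. The authors deposited raw counts of reads per gene, without normalization. Their supplementary methods give TRIzol, a paired-end NovaSeq run and FASTP, while the sample labels describe another kit with cDNA amplification, and amplification can change levels with length and GC content. The labels name mm10, a mouse build, although all identifiers are human. The aligner, counter, strand setting and annotation are not given in the sources used here. Symbols were matched for 61757 and GENCODE 29 positions for 58254 of 61806 identifiers.

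Genes were kept with edgeR 4.0.16 filterByExpr (minimum count 10, minimum total 15), normalized by TMM and tested with the quasi-likelihood test (R 4.3.3), all 6 libraries in 1 fit without a block. Calls needed an adjusted p under 0.05 with a change of 2-fold or more. Exact permutation used the 20 relabellings of 3 against 3, and correlations all 720 pairings. The alternatives were DESeq2 1.42.0, its size factors, upper-quartile normalization, limma 3.58.1 voom with quality weights, other filters, a block, splines (4 degrees of freedom) for length and GC, each library left out, CPM per kb and pseudocounts of 1 and 0.1. Fits were tested on simulated data whose planted changes exceeded 2-fold. Those data do not show how often differences as small as those of the members would be found. Members and gene lists were chosen with earlier results of these data known. Genes named from a list were the 2 with the highest mean CPM and the 2 with the smallest p, with those at an adjusted p under 0.05. Single values of 2 genes of these lists are not reported here.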

Additional observations from a re-analysis of the deposited data

Results flagged for a closer look

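The antisense gene ENSG00000267727, on the plus strand of chromosome 19 (33301279 to 33301940) within *CEBPA*, had 26 counts in shATGL 3 and 0 in each of the other 5 libraries, where a count of 0 allows up to 3. It was picked out because the signal lies outside the genes compared and is above the level in the shNC libraries. *CEBPA* had 35723 counts in the same library. Strand-specific counting was not stated, and the source of these counts was not tested. Groups of 3 libraries are too small for a search for single outlying values.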

How the results depend on the processing

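Over 15 alternatives *CEBPA*, *CEBPD*, *KLF4*, *IRF8*, *SPI1*, *GFI1*, *MYB* and *SCD* kept the sign of their fold change. Called genes numbered 1 as reported, 3 with upper-quartile normalization, 23 with DESeq2, 266 with voom and 3 with the length and GC correction plus the block, and 0 to 319 with 1 library left out (319 without shATGL 3). Members with an adjusted p under 0.05 numbered 0 as reported, 2 with voom and 0 to 2 with 1 library left out (2 without shATGL 3), where *CEBPA* was at -0.23 and *CEBPD* at -0.34 with voom. With 1 library left out, log2 fold changes changed sign in *CEBPB* (-0.126 to 0.0564; positive without shNC 3 or shATGL 2), *CEBPE* (-0.316 to 0.0748; positive without shNC 2), *PNPLA2* (-0.0240 to 0.0327; positive without shNC 3 or shATGL 2) and *RUNX1* (-0.0317 to 0.0589; negative without shATGL 3). *RUNX1* was also at -0.0245 with voom, -0.0557 with the length and GC correction and -0.0587 with that and the block. CPM per kb left 5 of 10 members at their CPM rank. The median of the other factors ranged from -0.0692 to 0.00142 with 1 library left out, the first without shATGL 3. The r of *CEBPA* with *PNPLA2* was 0.121 without shNC 3. The causes were not tested. Whether the replicate numbers pair the libraries was not tested. The same-number correlations of deviations were 0.0783, 0.220 and 0.344, and those between different numbers ran from -0.287 to 0.207. A replicate block gave 0 called genes in edgeR. At an unadjusted p under 0.05 it had 1801 genes lower and 1516 higher, against 1138 and 1105 without it. The adjusted p with the block was 0.104 for *CEBPA* and 0.0949 for *CEBPD* in edgeR. Depth limits *CEBPE* and *KLF4* most, and intervals cover these libraries only.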
